A study of Mus musculus with 7 samples.

Results

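The genes described here encode the proteasome, the protease of the cytosol and nucleus that degrades ubiquitin-tagged proteins. Their regions were chosen by name and distance alone: a region belonged to the set if its nearest gene in the deposited annotation had a symbol beginning with Psm, then a letter from a to e, then a digit, and if it lay within 100 kb of a transcription start site (TSS). Psmb8 and Psmb9 were left out by the rule. It found 133 of 93611 regions, assigned to 37 symbols, with 23 regions classed as promoters and 110 as introns, intergenic stretches and other classes. Of 41 genes for subunits, assembly chaperones and activators that the rule could name, 36 had a region, and Psma2, Psma4, Psmb11, Psmc5 and Psmd13 had none. The other symbol, Psmc3ip, has a name that the pattern takes but encodes a recombination factor and no subunit. It holds 1 region, so leaving it out could not move a count of calls by more than 1. Leaving it out turned the sign of no promoter median below.

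The signal is chromatin immunoprecipitation (ChIP) followed by sequencing for RelA and RelB, DNA-binding members of the NF-kB family, in dendritic cells grown from C57BL/6 mouse bone marrow in GM-CSF (20 ng/ml) plus IL-4 (10 ng/ml). The libraries were RelA ChIP in RelBko and in wild-type (WT) cells given 10 ng/mL lipopolysaccharide (LPS) for 1 h, RelB ChIP in RelBko and in WT cells after the same 1 h, RelB ChIP in RelBko and in WT cells without treatment (0 h), and input DNA of WT cells, for which the labels give no time or treatment. Each group was a single library, so no difference below has a replicate check and no p-value is given. The labels do not say in which cells RelB was deleted or how many animals gave each culture, and such marrow cultures are known to hold macrophage-like cells beside dendritic cells. Values are RPKM as deposited, that is, reads scaled by the length of the region and by the read total of the library.

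The proteasome has a barrel-shaped core of alpha rings, which gate entry, around beta rings, which hold the catalytic sites. A regulatory particle of ATPases, which unfold the substrate, and non-ATPase subunits, which bind and remove ubiquitin, caps the core, and chaperones help to assemble it. Ring-shaped activators can bind the core in place of the regulatory particle, and interferon-inducible catalytic subunits turn it into the immunoproteasome, which shapes the peptides that dendritic cells present on MHC class I. The proteasome also acts within NF-kB signalling, since it degrades the IkB inhibitors and processes the NF-kB precursors.

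Promoter sequences are shown for the activator genes Psme1, Psme2 and Psme3 and for Psma6, whose promoter regions had the 4 highest RelB values in WT cells at 1 h, and for Psmd1, whose promoter was among the weakest. They are RefSeq windows of GRCm38.p6 from 250 bases before to 50 bases after a gene start, 5′ to 3′ on the gene's strand. Capitals mark matches on either strand, with overlaps allowed. The patterns were a loose form of the NF-kB consensus, given below (Psme2), and CCGGAA, a core pattern of ETS factors (Psme3, Psma6). For Psme1 it was a pattern of interferon-responsive elements, GAAA and GAAA with 2 bases between. The windows lie at chr14:55591052-55591351 (minus strand), chr14:55578244-55578543, chr11:101315963-101316262, chr12:55398575-55398874 and chr1:86064369-86064668, the last 4 on the plus strand.
Psme2: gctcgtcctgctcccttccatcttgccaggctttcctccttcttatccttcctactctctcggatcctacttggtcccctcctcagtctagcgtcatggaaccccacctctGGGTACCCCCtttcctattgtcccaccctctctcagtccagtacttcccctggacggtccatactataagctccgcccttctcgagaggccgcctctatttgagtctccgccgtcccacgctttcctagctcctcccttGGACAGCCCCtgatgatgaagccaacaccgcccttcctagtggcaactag
Psme1: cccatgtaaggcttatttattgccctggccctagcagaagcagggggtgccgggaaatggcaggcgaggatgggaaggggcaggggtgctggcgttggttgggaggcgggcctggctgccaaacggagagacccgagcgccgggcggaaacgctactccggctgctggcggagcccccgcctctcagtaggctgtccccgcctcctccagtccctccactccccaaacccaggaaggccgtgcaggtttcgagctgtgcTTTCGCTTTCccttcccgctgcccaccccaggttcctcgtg
Psme3: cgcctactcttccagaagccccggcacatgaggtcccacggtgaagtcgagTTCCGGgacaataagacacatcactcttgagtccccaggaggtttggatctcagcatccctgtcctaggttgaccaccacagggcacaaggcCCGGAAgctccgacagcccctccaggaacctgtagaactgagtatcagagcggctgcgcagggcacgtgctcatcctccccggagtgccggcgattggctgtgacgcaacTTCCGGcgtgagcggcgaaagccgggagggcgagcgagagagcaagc
Psma6: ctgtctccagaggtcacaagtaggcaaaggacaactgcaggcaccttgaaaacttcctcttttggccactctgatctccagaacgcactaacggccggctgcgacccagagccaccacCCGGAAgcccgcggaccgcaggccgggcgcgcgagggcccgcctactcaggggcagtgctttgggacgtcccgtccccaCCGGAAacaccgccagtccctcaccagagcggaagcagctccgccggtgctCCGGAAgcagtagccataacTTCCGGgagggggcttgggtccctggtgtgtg
Psmd1: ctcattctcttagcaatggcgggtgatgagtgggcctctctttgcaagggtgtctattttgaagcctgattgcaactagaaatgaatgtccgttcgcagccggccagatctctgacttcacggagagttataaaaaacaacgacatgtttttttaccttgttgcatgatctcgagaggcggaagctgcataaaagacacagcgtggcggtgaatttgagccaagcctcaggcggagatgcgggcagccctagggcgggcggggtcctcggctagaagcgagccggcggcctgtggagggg

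Across the RefSeq table, 38 windows belonged to 35 genes that fit the name rule, and 30 of the 37 symbols with regions had a window. The NF-kB consensus was searched in a loose form: GGG, A or G, any base, C or T, any base, C or T, and CC. It was found in 4 of the 38 windows, those of Psma7 and Psmd13 and both of Psme2 (10.5%), against 10.0% of all 32851 windows. Both Psme2 windows overlap and hold the same sites. A form that requires C or T at the later open base would not take the sites of Psme2 and Psmd13. The pattern CCGGAA was found in 19 of the 38 windows (50.0%), against 14.9% of all windows. The interferon-responsive pattern, searched after the windows had been read, was found in those of Psmb3, Psmd4, Psmd9 and Psme1 (10.5%, against 3.44%). CCAAT was in 36.8% of the proteasome windows and 37.4% of all, TGACNNNGC, part of the antioxidant response element, in 15.8% and 12.4%, and the palindrome of nuclear respiratory factor, GCGC, AT and GCGC in a row, in that of Psma2 alone (2.63%, against 0.971%). GGAANTTCC and the ZNF143 pattern were in none of the 38, against 0.928% and 0.286% of all windows. The proteasome windows had a median GC content of 58.2%, against 52.7% for all windows. A match describes letters in a window and is not a binding site, and the windows are not the ChIP regions, which are in mm9.

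Promoters were 17.3% of the proteasome regions and 11.0% of all regions. Of the 133 proteasome regions, 65 were intronic and 33 intergenic by the deposited class. A gene had 1 to 21 regions (median 2), with 8 genes at 1 region and Psma6 at 21, ahead of Psmc1 with 11. A region counted as enriched if it reached 2 RPKM and lay at least 2-fold over the input, after 0.5 RPKM had been added to both. By this rule 127 of the 133 proteasome regions were enriched in at least 1 ChIP library and 6 in none. RelA was enriched at 98 in RelBko cells (75.9% of all regions of the table) and at 109 in WT cells (82.0%). RelB was enriched at 11 regions in RelBko cells (6.36% of all) and 114 in WT cells (81.7%) at 1 h, and at 33 in RelBko cells (24.1%) and 103 in WT cells (75.9%) at 0 h. All 23 proteasome promoters were enriched for RelB in WT cells at both times, where 93.3% of all promoter regions were enriched at 1 h and 90.3% at 0 h. For RelA at 1 h, 22 of 23 were enriched in RelBko cells (95.4% of all promoter regions) and 22 in WT cells (95.7%), the exception in both being Psmb1. RelB ChIP in RelBko cells gave 4 enriched promoters at 1 h (11.7% of all promoters), those of Psma6, Psmd6, Psmd7 and Psme3, and 13 at 0 h (52.3%). The regions themselves were selected by the authors, so these shares say little beyond signal over input.

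The median proteasome promoter had 14.0 RPKM for RelA in RelBko cells and 9.52 RPKM in WT cells, next to 13.0 RPKM in RelBko and 11.9 RPKM in WT over all promoter regions. Over 63 promoter regions of ribosomal protein genes the medians were 10.6 RPKM in RelBko and 10.0 RPKM in WT. For RelB at 1 h it had 2.08 RPKM in RelBko cells and 8.75 RPKM in WT cells, and at 0 h 4.07 RPKM in RelBko cells and 7.97 RPKM in WT cells. The input median was 1.56 RPKM. In the WT libraries the proteasome promoters thus sat a little under the median promoter and near those of the ribosomal protein genes, another set of housekeeping genes. The 110 non-promoter regions had medians of 5.66 RPKM for RelA in RelBko cells and 6.68 RPKM in WT cells, and of 7.45 RPKM for RelB in WT cells at 1 h.

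**Figure D1:**
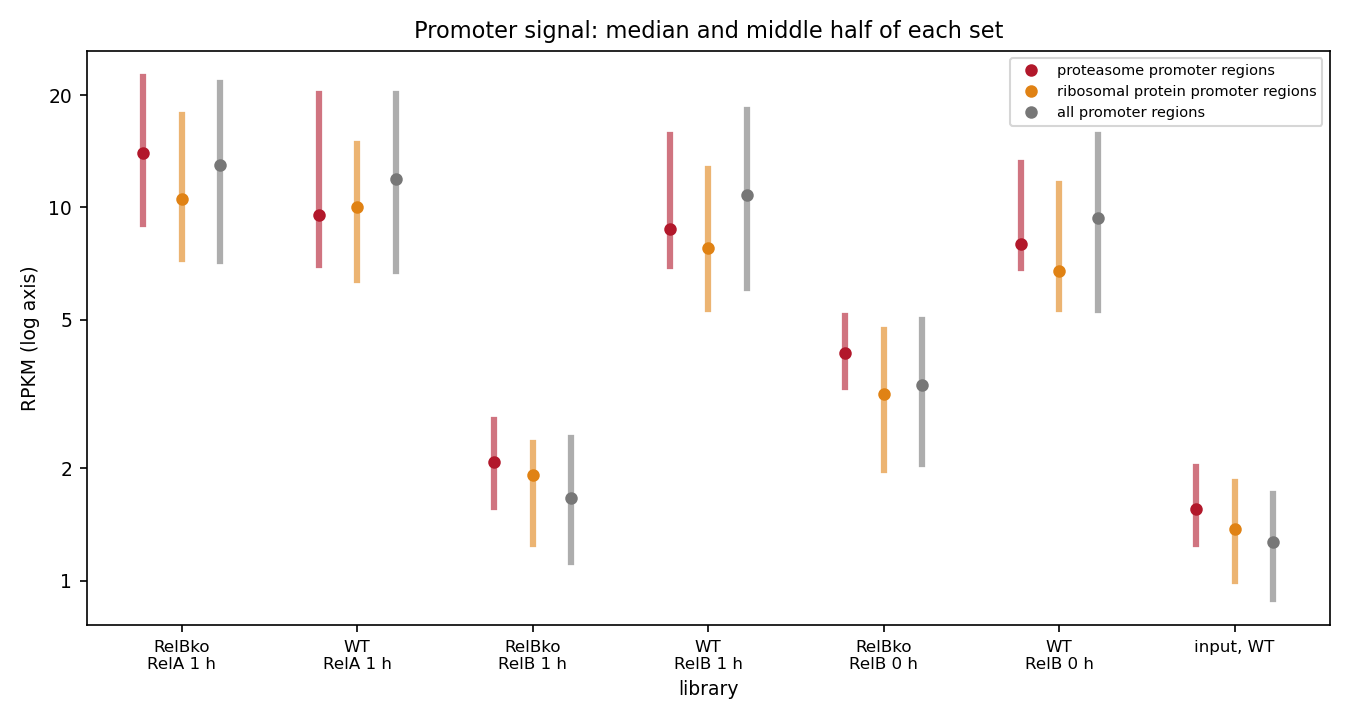
Median (points) and 25th to 75th percentile (bars) of RPKM, on a log axis, over 23 proteasome promoter regions, 63 ribosomal protein promoter regions and all 10262 promoter regions in each of the 7 libraries. The 3 sets overlap in every library, and the RelBko RelB libraries lie between the WT RelB libraries and the input.

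The 3 activator promoters and that of Psma6 had the 4 highest values of the 23 promoters for RelA in WT cells, as they did for RelB in WT cells at both times. Psme2, which with Psme1 forms the interferon-inducible activator ring, had 56.3 RPKM for RelA in RelBko cells and 49.9 RPKM in WT cells at its promoter region (chromosome 14, 56209693 to 56210153, mm9, counted from 1, as are all regions below). RelB signal there was 3.67 RPKM in RelBko and 31.7 RPKM in WT at 1 h, 7.94 RPKM in RelBko and 27.2 RPKM in WT at 0 h, and the input had 1.81 RPKM. It was the highest RelA value of all 23 promoters in both genotypes.

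Psme1 (chromosome 14, 56197122 to 56197473) had 24.9 RPKM for RelA in RelBko cells and 29.1 RPKM in WT cells. Its RelB signal was 2.62 RPKM in RelBko and 28.8 RPKM in WT at 1 h, and 6.17 RPKM in RelBko and 20.3 RPKM in WT at 0 h. Psme3, which encodes a nuclear activator that forms a ring on its own, had 34.3 RPKM for RelA in RelBko cells and 31.1 RPKM in WT cells (chromosome 11, 101177120 to 101177574). For RelB it had 4.51 RPKM in RelBko and 33.9 RPKM in WT at 1 h, and 9.68 RPKM in RelBko and 27.6 RPKM in WT at 0 h. The large single-chain activator gene Psme4 had no promoter region by class, but a 5′ UTR region 101 bp from its TSS held 23.3 RPKM for RelA in RelBko cells and 24.2 RPKM in WT cells. In all 4 activator genes the region nearest the TSS had lower RelB signal in RelBko than in WT cells at both times. Among promoter regions enriched in either genotype, RelB signal was lower in RelBko at 9577 of 9581 (1 h) and 9208 of 9315 (0 h).

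The alpha ring had 34 regions but 2 promoter regions. That of Psma6 (chromosome 12, 56499536 to 56499897) had 40.6 RPKM for RelA in RelBko cells and 33.6 RPKM in WT cells. RelB gave 5.95 RPKM in RelBko and 43.3 RPKM in WT at 1 h, and 5.85 RPKM in RelBko and 52.5 RPKM in WT at 0 h, the WT values being the highest RelB values of any proteasome promoter. The promoter of Psma1 was weak, with 8.96 RPKM for RelA in RelBko cells and 6.35 RPKM in WT cells. Psma3 had an intronic region 481 bp from its TSS at 48.4 RPKM for RelA in RelBko cells and 50.0 RPKM in WT cells, a level that only the Psme2 promoter exceeded in RelBko cells and no proteasome promoter exceeded in WT cells. Of the 35 regions within 1 kb of a TSS, 12 were not promoters by class, so a count of promoter regions leaves out some start-proximal signal. Psma8, a testis-specific alternative to Psma7, had 2 intronic regions and no promoter region.

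The beta ring had 5 promoter regions, ordered by RelA signal in WT cells as Psmb2, Psmb3, Psmb7, Psmb6 and Psmb1. Psmb2, a structural subunit, had 24.9 RPKM for RelA in RelBko cells and 15.6 RPKM in WT cells, and 23.6 RPKM for RelB in WT cells at 1 h. Psmb6 and Psmb7 encode catalytic subunits: Psmb6 had 8.41 RPKM for RelA in RelBko cells and 4.70 RPKM in WT cells. For Psmb7 these values were 8.53 RPKM in RelBko and 6.09 RPKM in WT. Psmb1 was lowest of all 23, with 3.52 RPKM in RelBko and 3.51 RPKM in WT. The remaining constitutive catalytic subunit gene, Psmb5, had an exonic region 132 bp from its TSS with 6.31 RPKM for RelA in RelBko cells and 5.18 RPKM in WT cells.

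Psmb10, the interferon-inducible catalytic subunit that takes the place of Psmb7, had an intronic region 453 bp from its TSS (chromosome 8, 108461531 to 108462147). RelA gave 18.5 RPKM there in RelBko cells and 27.4 RPKM in WT cells, a ratio of reads of 0.677 (95% counting interval 0.573 to 0.801). RelB gave 1.33 RPKM in RelBko and 28.6 RPKM in WT at 1 h, and 2.50 RPKM in RelBko and 32.6 RPKM in WT at 0 h. Its value for RelB in WT at 1 h was thus above those of Psmb1, Psmb2, Psmb3, Psmb6 and Psmb7 at their promoters. Of the other immunoproteasome genes, which lie outside the rule, the Psmb8 region 140 bp from its TSS had 20.7 RPKM for RelA in RelBko and 25.3 RPKM in WT. The Psmb9 promoter had 13.5 RPKM for RelA in RelBko and 9.70 RPKM in WT, close to the median proteasome promoter.

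In the regulatory particle, the ATPase genes Psmc6 and Psmc3 had promoter regions. Psmc6 had 19.2 RPKM for RelA in RelBko cells and 18.4 RPKM in WT cells, and Psmc3 had 11.8 RPKM in RelBko and 10.1 RPKM in WT. Among 8 non-ATPase promoters, Psmd12, a lid subunit gene, was highest, with 28.4 RPKM for RelA in RelBko cells and 23.6 RPKM in WT cells. Psmd1, a large scaffold subunit gene, was lowest, with 5.07 RPKM in RelBko and 5.65 RPKM in WT. Psmd7, which encodes the partner of the deubiquitinase Psmd14, had 19.8 RPKM in RelBko and 21.8 RPKM in WT, and Psmd14 itself had 14.2 RPKM in RelBko and 9.52 RPKM in WT. The other lid and base promoters lay between these, with 9.13 RPKM in RelBko and 7.13 RPKM in WT at Psmd2, 10.4 RPKM in RelBko and 8.45 RPKM in WT at Psmd3, and 11.0 RPKM in RelBko and 7.42 RPKM in WT at Psmd6. The chaperone genes Psmd5 and Psmd9, which assist assembly of the ATPase ring, had 16.6 and 10.8 RPKM for RelA in RelBko cells, against 14.7 and 9.97 RPKM in WT cells.

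Beyond the promoters, and outside Psma6, some regions far from a TSS were stronger than most promoters; the following were chosen after their values were seen. An intron of Psmb7 at 33560 had 23.9 RPKM for RelA in RelBko cells and 30.2 RPKM in WT cells, and 2.26 RPKM for RelB in RelBko and 59.5 RPKM in WT at 1 h. A region at -6382 from Psmd3 had 31.2 RPKM for RelA in RelBko and 33.0 RPKM in WT, and 2.49 RPKM for RelB in RelBko and 50.5 RPKM in WT at 1 h. Psmb3 had 3 regions of the 3′ UTR class, 12117 to 15074 bp from its TSS, the strongest with 33.5 RPKM for RelA in RelBko and 29.9 RPKM in WT. Psmc1, an ATPase gene without a promoter region, had 11 regions, the strongest for RelA at -22788 with 26.7 RPKM in RelBko and 31.8 RPKM in WT.

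**Figure D2:**
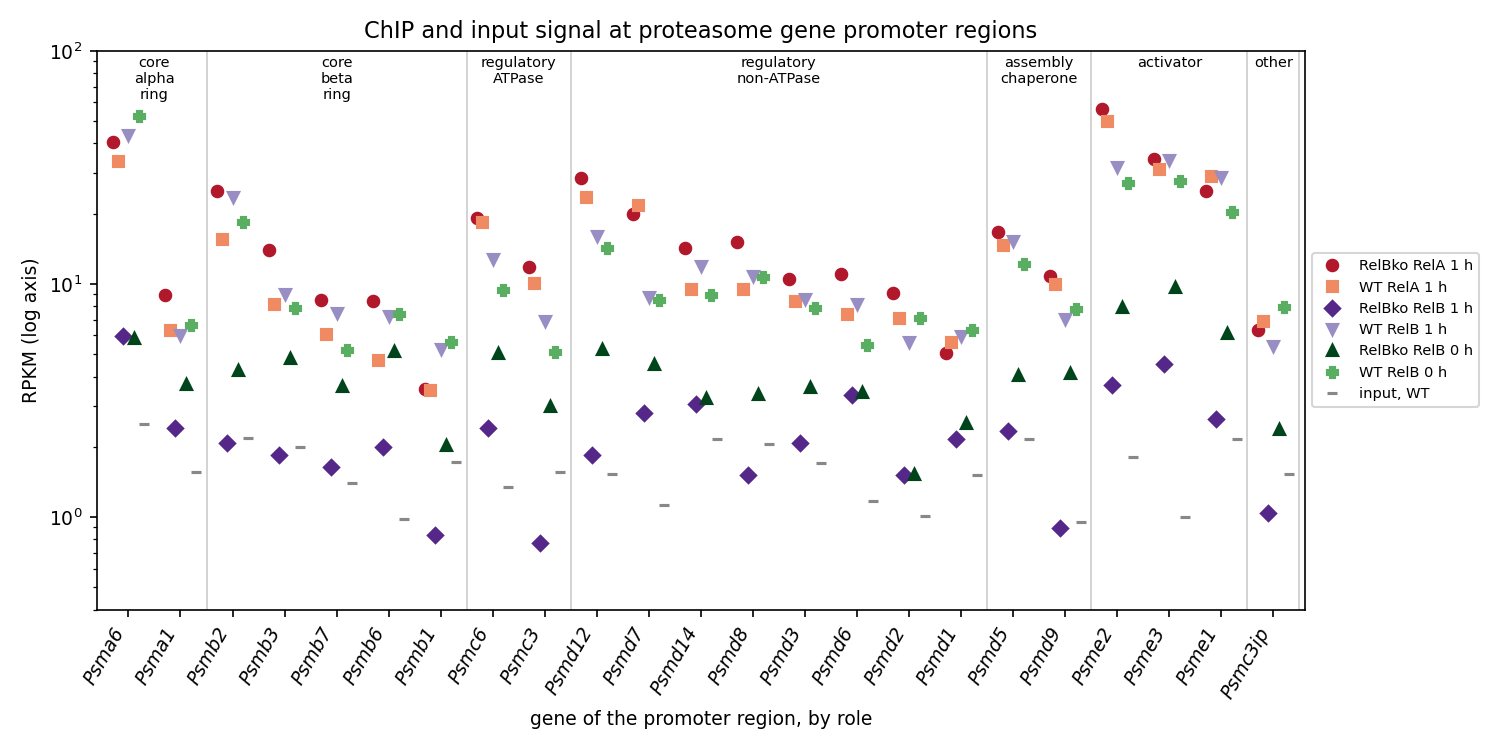
RPKM, on a log axis, in each of the 7 libraries at the 23 promoter regions, ordered by role and then by RelA signal in WT cells; each point is 1 library. RelA points of RelBko and WT lie within 2-fold of each other at each gene, from 3.52 and 3.51 RPKM at Psmb1 to 56.3 and 49.9 RPKM at Psme2. The RelBko RelB points lie under the WT RelB points at every gene at both times.

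RelA ChIP in RelBko and WT cells at 1 h addresses the question of the series, how loss of RelB affects DNA binding by RelA. A region was compared if enriched in at least 1 of the 2 libraries, and called higher or lower at 2-fold or more on the scale of log2(RPKM + 0.5). Of 115 proteasome regions compared, 3 were higher in RelBko (1.30% of all compared regions) and 9 lower (4.94%). None of the 22 promoters among them was called, against 0.458% of all promoter regions higher and 0.966% lower. Their median log2 ratio of RelBko over WT was 0.26, next to 0.08 over all promoter regions and 0.17 over those of ribosomal protein genes, and 18 of the 22 lay above 0. The signs are close to those of the ribosomal set, where 50 of 63 lay above 0. Over all promoter regions 6131 of 10037 did.

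The 95% counting interval of the ratio of reads lay above 1 at 8 of the 22 promoters, against 13.8% of all promoter regions and 19.0% of those of ribosomal protein genes, and below 1 at none (7.11% of all). These 8 were Psma6, Psmb2, Psmb3, Psmb6, Psmb7, Psmd6, Psmd8 and Psmd14. Such an interval covers the counting of reads only, not the difference between any 2 libraries, and reads are not independent molecules. The result depends on the promoter class. Among 34 compared proteasome regions within 1 kb of a TSS, 24 had a log2 above 0. There the interval lay above 1 at 10 and below 1 at 3, against 1774 and 1155 of all 14338 such regions. All 4 compared beta ring promoters were among the 8 promoters above 1. The remaining beta ring promoter, Psmb1, was not compared and had 3.52 RPKM in RelBko and 3.51 RPKM in WT. The start-proximal region of Psmb10, not a promoter by class, went the other way, with a log2 of -0.55. Psmb6 had the largest ratio, 1.79 (1.17 to 2.79), followed by Psmb3 at 1.71 (1.26 to 2.36), with 14.0 RPKM in RelBko and 8.16 RPKM in WT. Psmb2 had a ratio of 1.60 (1.25 to 2.06), and Psmb7 one of 1.40 (1.03 to 1.93). Psmd8, a lid subunit gene, had 15.1 RPKM in RelBko and 9.50 RPKM in WT, a ratio of 1.59 (1.18 to 2.15). By contrast the activators spread around 1, with ratios of 1.13 (0.993 to 1.28) at Psme2, 1.10 (0.937 to 1.30) at Psme3 and 0.857 (0.699 to 1.05) at Psme1. Differences between these roles were not tested, since each role has 2 to 8 promoters from the same pair of libraries.

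Of 93 compared non-promoter regions, 3 were called higher in RelBko (1.42% of all non-promoter regions) and 9 lower (5.50%), with a median log2 of -0.16 (all non-promoter regions -0.09). The strongest called region lay at -28590 from the Psma6 TSS, with 24.8 RPKM in RelBko and 11.5 RPKM in WT, a ratio of 2.15 (1.65 to 2.84). The other higher calls were weak: the region at -4711 from Psmd8 had 3.99 RPKM in RelBko and 1.45 RPKM in WT, and an intron of Psme4 had 2.64 RPKM in RelBko and 1.03 RPKM in WT.

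Among the lower calls, an intronic region 39494 bp downstream of the Psmb7 TSS had 3.82 RPKM in RelBko and 14.5 RPKM in WT, a ratio of 0.263 (0.171 to 0.396). The region 29114 bp from the Psmd9 TSS had 8.44 RPKM in RelBko and 17.6 RPKM in WT, and that at -28414 from Psmc1 had 1.61 RPKM in RelBko and 5.89 RPKM in WT. The remaining 6, near Psma7, Psmb7, Psmd2, Psmd6 and Psmd14 (2 regions), had at most 4.27 RPKM in WT. That of Psmd6 rested on 2 reads in RelBko and 14 in WT, a ratio of 0.105 (0.0116 to 0.457). The called regions were mostly weak ones far from a TSS. None lay within 1 kb of one, where only 76 of all 14338 compared regions were called higher and 158 lower.

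**Figure D3:**
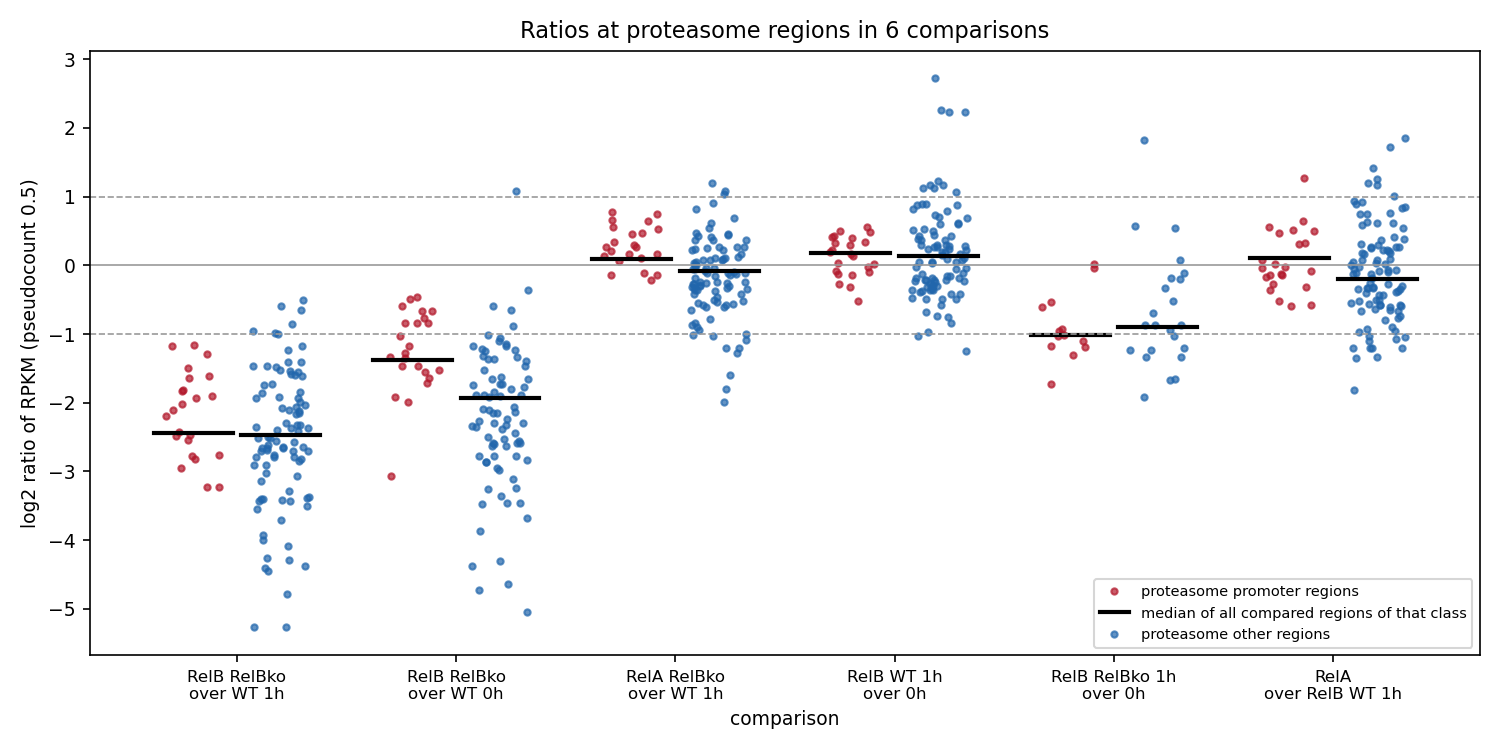
log2 ratio of RPKM (pseudocount 0.5) at compared proteasome regions in 6 comparisons, each named first group over second; points are promoter or other regions, black bars the median of all compared regions of that class, and dashed lines the 2-fold limits for a call. The RelA promoter ratios lie between -0.22 and 0.78, inside both limits, while the RelB ratios of RelBko over WT at 1 h are all below 0.

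RelB ChIP in RelBko and WT cells compares the signal obtained without and with the RelB gene. At 1 h 107 of the 114 proteasome regions compared were lower in RelBko (95.9% of all compared regions of the table) and none was higher (0.128%). Among them all 23 promoters were called lower in RelBko, as were 97.8% of all promoter regions (0.0209% were higher), with a median log2 of -2.11, against -2.43 over all promoter regions and -1.83 over those of ribosomal protein genes. The median of all compared regions was -2.47, a shift toward lower values in RelBko that nearly the whole table shared. With the median ratio of all compared regions set to 1, the promoter median becomes 0.35, its sign turns, and 3 promoters are higher and none lower. By construction this setting takes out any shift that the compared regions share. At 1 h the regions held 4.62% of RelB reads in RelBko and 42.4% in WT. With regions of no enrichment set to a median ratio of 1 the median is -1.37 and 17 promoters are lower. Every compared proteasome region here was enriched in WT, a choice that favours lower values in RelBko. Without the filter on low values, 112 of all 133 proteasome regions were lower and 1 was higher. Psmb2 had the lowest promoter ratio, with 2.07 RPKM in RelBko and 23.6 RPKM in WT, a ratio of reads of 0.0876 (0.0472 to 0.150), followed by Psme1 at 0.0911 (0.0532 to 0.147). Psma1 and Psmd6 were closest to parity, with 2.41 and 3.35 RPKM in RelBko, against 6.00 and 8.22 RPKM in WT.

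Of 91 non-promoter regions compared at 1 h, 84 were lower (95.6% of all non-promoter regions) and none was higher (0.143%), with a median of -2.52. The 3 largest differences were all near Psma6: the intronic region at -18878 had 3.79 RPKM in RelBko and 165 RPKM in WT, a ratio of 0.0230 (0.0154 to 0.0332). That at -1210 had 2.83 RPKM in RelBko and 128 RPKM in WT, and that at -23052 had 1.65 RPKM in RelBko and 58.9 RPKM in WT. The 3 smallest were weak regions, at -46116 from Psmc1 and at 17377 and -3162 from Psma6, with 2.58 RPKM or less in WT.

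At 0 h, 90 of the 104 proteasome regions compared were lower in RelBko (86.0% of all) and 1 was higher (0.504%). Of these, 14 of the 23 promoters were called lower in RelBko (74.3% of all promoter regions), none was higher (0.140%), and the median log2 was -1.27 (all promoters -1.38, ribosomal protein promoters -1.16). With the median ratio of all compared regions set to 1, 9 promoters are higher, 1 is lower and the median turns to 0.58, and with regions of no enrichment at a ratio of 1, 6 are lower and the median is -0.74. At the deposited scale the 9 promoters within 2-fold were Psma1, Psmb3, Psmb6, Psmb7, Psmc3, Psmc6, Psmd6, Psmd7 and Psmd9, and at Psmb6 and Psmb7 the counting interval of the ratio included 1, whereas at the other 21 promoters it lay below 1 (90.4% of all promoter regions). Psmb7 had 3.64 RPKM in RelBko and 5.21 RPKM in WT, and Psmb6 had 5.17 RPKM in RelBko and 7.44 RPKM in WT. The exonic Psmb5 region had the least difference of all, with 2.37 RPKM in RelBko and 3.19 RPKM in WT. Psma6 had the lowest ratio, 0.111 (0.0776 to 0.155). Of 81 non-promoter regions, 76 were lower (87.8% of all non-promoter regions) and 1 was higher (0.558%), the region at -50173 from Psmd7, which rested on 9 reads in RelBko and 7 reads in WT in libraries of unequal size. Its ratio of 2.58 had an interval of 0.854 to 8.15. The lowest values were again those of Psma6, at -18878 with 4.38 RPKM in RelBko and 160 RPKM in WT, and at -1210 with 2.15 RPKM in RelBko and 69.5 RPKM in WT, followed by a Psmb7 intron at 22173 with 0.632 RPKM in RelBko and 27.7 RPKM in WT.

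Between 1 h of LPS and 0 h, RelB in WT cells was called higher at 10 of 117 proteasome regions (11.0% of all regions) and lower at 2 (1.68%). The signal was within 2-fold at all 23 promoters (4.26% of all promoter regions were higher and 0.370% lower), with a median log2 of 0.16, close to 0.17 over all promoter regions. The counting interval lay above 1 at 8 promoters (29.9% of all), among them those of all 3 activators, and below 1 at Psma6 and Psmc3ip (6.44% of all). Psme1 had 28.8 RPKM at 1 h, against 20.3 RPKM at 0 h, a ratio of 1.42 (1.20 to 1.69), and Psmd6 had the largest promoter ratio, 1.51 (1.17 to 1.96). Psma6 had 43.3 RPKM at 1 h, against 52.5 RPKM at 0 h, a ratio of 0.825 (0.730 to 0.931).

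Away from promoters, 10 of 94 regions were higher at 1 h (11.9% of all non-promoter regions) and 2 were lower (1.86%). Of the 10, 6 were near Psma6. The others were an intron of Psmb7 at 45712 with 10.5 RPKM at 1 h and 1.84 RPKM at 0 h, a region at -37456 from Psma1 with 10.6 RPKM at 1 h and 4.23 RPKM at 0 h, and weak regions of Psmd8 and Psme4 at 3.70 and 2.55 RPKM at 1 h. The lower ones were at -4737 from Psmc1, with 3.16 RPKM at 1 h and 8.16 RPKM at 0 h, and at 17403 from Psmd7, with 4.45 RPKM at 1 h and 9.63 RPKM at 0 h. Without Psma6, 4 of 74 regions were higher at 1 h.

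In RelBko cells, RelB ChIP gave 36 regions to compare between the times, of which 16 were lower at 1 h (44.1% of all) and 1 higher (0.863%). With the median ratio of all compared regions set to 1, none is lower and 4 are higher, and at 4 RPKM and 4-fold over input 2 are lower. Of 13 promoters, 7 were lower at 1 h (50.9% of all promoter regions) and none higher (0.0368%): Psmb3, Psmb6, Psmd9, Psmd12, Psme1, Psme2 and Psme3. Psmd9 had 0.900 RPKM at 1 h, against 4.16 RPKM at 0 h, and Psme3 had 4.51 RPKM at 1 h, against 9.68 RPKM at 0 h. The promoter median was -1.02, against -1.01 over all promoter regions. Of 23 non-promoter regions, 9 were lower (42.0% of all) and 1 was higher (1.11%), an intron of Psmd11 with 12 reads at 1 h and 2 reads at 0 h. Of the 36 regions compared, 33 were enriched in the 0 h library, which favours lower values at 1 h.

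RelA and RelB libraries of WT cells at 1 h had like profiles over the proteasome promoters. Across the 23, the log2 values of both had a Pearson correlation of 0.885 (Spearman 0.857), against 0.888 over all promoter regions, and those of RelA in RelBko and in WT cells had 0.954, against 0.953. These are descriptions across regions that share 1 pair of libraries. RelA was called higher than RelB at 8 of 121 proteasome regions (7.45% of all) and lower at 11 (7.21%). Only Psmd7 was called at a promoter, with 21.8 RPKM for RelA and 8.75 RPKM for RelB, a ratio of 2.50 (1.93 to 3.24), where 7.07% of all promoter regions were higher for RelA and 1.11% lower. RelA and RelB come from different antibodies, so the ratio compares libraries and not amounts of protein on DNA.

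Of 98 non-promoter regions, 7 were higher for RelA (7.50% of all non-promoter regions) and 11 lower (8.02%). By nearest gene, the higher ones were assigned to Psmb6, the chaperone gene Psmd10 and genes of the regulatory particle, which also had lower calls. The ATPase and non-ATPase genes of that particle held 20 and 39 of the 133 regions. The Psmd10 intron 937 bp from the TSS had 9.97 RPKM for RelA and 3.41 RPKM for RelB, a Psmd11 intron had 8.85 RPKM for RelA and 2.33 RPKM for RelB, and the region at the end of Psmb6 had 22.3 RPKM for RelA and 9.08 RPKM for RelB. Those of Psmd2, Psmd6, Psmd7 and Psmd14 had 3.20 to 7.22 RPKM for RelA. Among the 11 lower ones were 3 of Psma6, with 64.2 RPKM for RelA and 165 RPKM for RelB at -18878 and 55.3 RPKM for RelA and 128 RPKM for RelB at -1210. The Psmb7 introns at 22173 and 39494 had 5.18 and 14.5 RPKM for RelA, against 19.5 and 31.0 RPKM for RelB. The rest, near Psmb2, Psmc1, Psmd6, Psmd8 and Psmd14, had 1.09 to 4.27 RPKM for RelA.

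Psma6 held 21 of the 133 regions, all on chromosome 12 and 49.4 to 149 kb from the promoter region of Nfkbia, which encodes the NF-kB inhibitor that the proteasome degrades. That promoter had 191 RPKM for RelA in RelBko cells and 190 RPKM in WT cells. The deposited distances fall on 2 Psma6 start sites 14604 bp apart. Of the 21 regions, 11 lay upstream of both starts and all 11 were intronic, so within another gene; the RefSeq table of GRCm38 gives Prorp as the neighbour on that side. Another 3 lay between the starts and 6 downstream of the second, and the promoter region is at the second. Distances of the promoter region, of the regions at -5602 and -1210 and of those downstream are counted from the second start, the others from the first. The nearest-gene assignment does not show that these regions act on Psma6.

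Signal at these regions was uneven. The region at -18878 was strongest for RelB, and that at 5717, an intronic region between the starts, was strongest for RelA, with 87.1 RPKM in RelBko and 89.4 RPKM in WT. A neighbour at -5602 from the second start had 74.1 RPKM for RelA in RelBko and 63.1 RPKM in WT. For RelB in WT cells it had 85.5 RPKM at 1 h, against 17.5 RPKM at 0 h, a ratio of 4.89 (4.31 to 5.55). The region at -28590 had likewise more RelB signal at 1 h, with 16.5 RPKM at 1 h and 2.08 RPKM at 0 h, a ratio of 7.95 (5.28 to 12.4). By contrast the region at -18878 had 165 RPKM at 1 h, against 160 RPKM at 0 h. The remaining 4 called higher at 1 h, at -9431, -3162, 8815 and 40131, had 2.58 to 8.90 RPKM at 1 h. None of the 21 was called lower at 1 h.

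**Figure D4:**
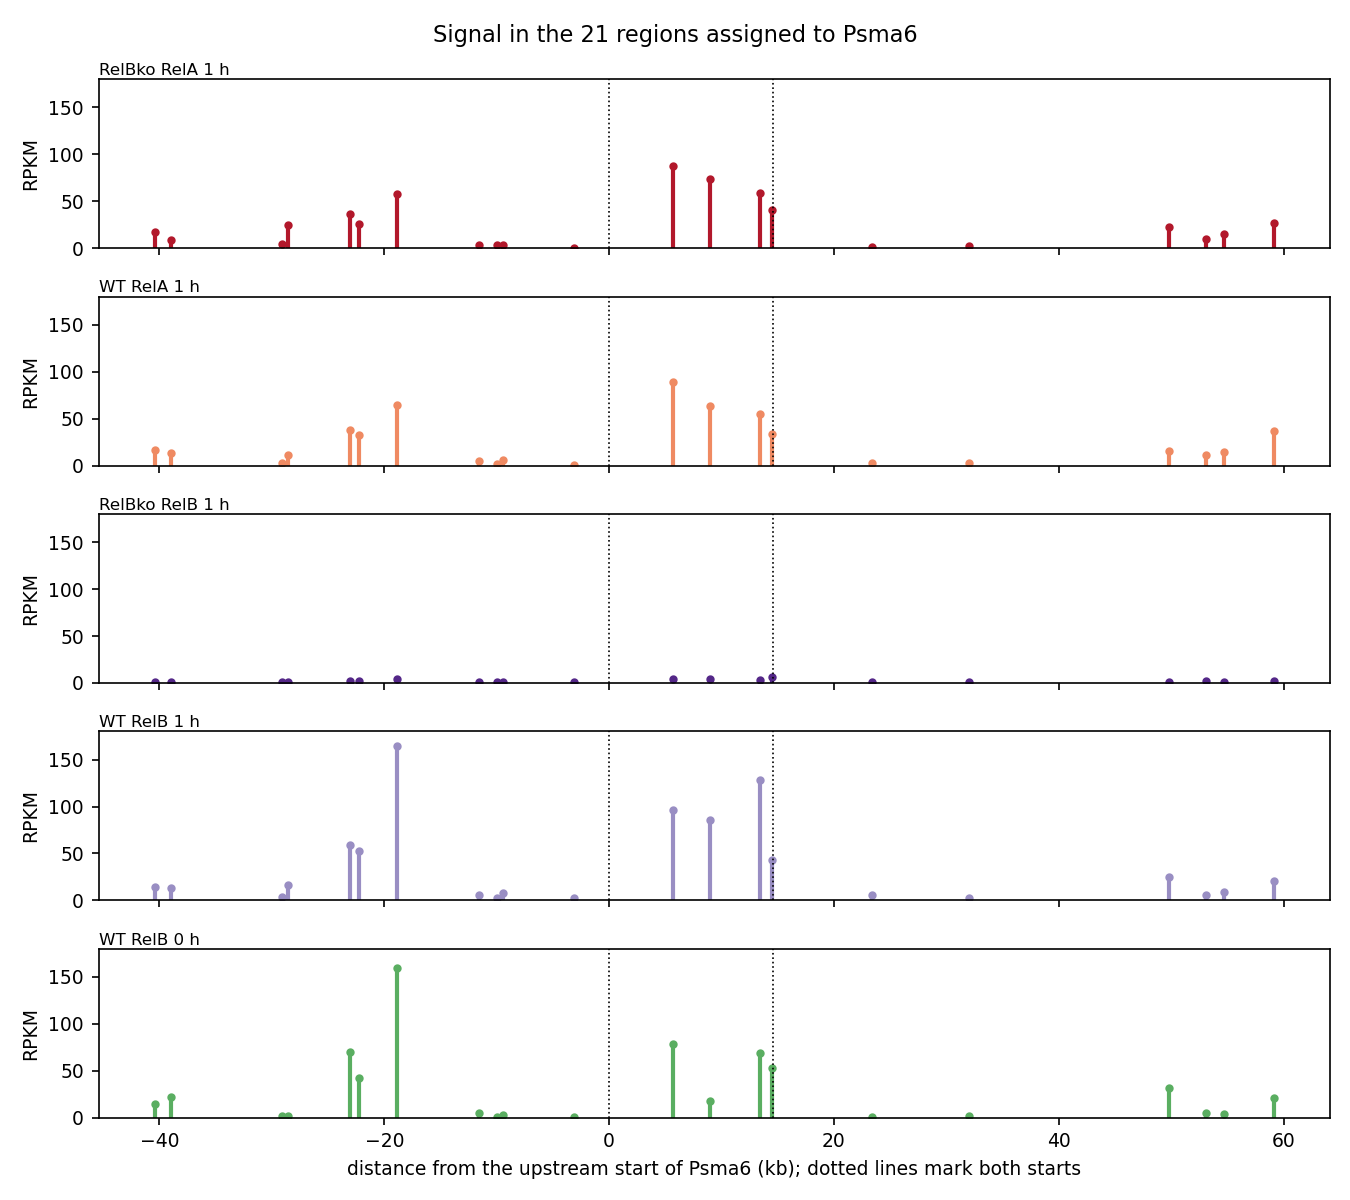
RPKM at the 21 regions assigned to Psma6, by distance in kb from the upstream start site, in 5 ChIP libraries with a shared linear axis. The region at -5602 from the second start stands at 85.5 RPKM for RelB in WT cells at 1 h and at 17.5 RPKM at 0 h, and the highest value in the RelBko RelB panel, which shows the 1 h library, is 5.95 RPKM.

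Genes that work with the proteasome gave a like picture, counted on promoter regions. Of 14 symbols for its assembly and regulation, 17 for ubiquitin supply and delivery and 4 for its transcription factors, with older and newer names of a gene counted apart, 9, 13 and 3 had a promoter region. None was called for RelA in RelBko over WT (0.458% of all promoter regions higher, 0.966% lower), for RelB in WT at 1 h over 0 h (4.26% higher, 0.370% lower), or for RelA over RelB (7.07% higher, 1.11% lower). All were lower for RelB in RelBko than in WT at 1 h, as were 97.8% of all promoter regions, and 6, 11 and 3 were lower at 0 h (74.3% of all). Their RelA medians in WT cells were 14.2, 18.7 and 24.5 RPKM, each above those of the proteasome promoters (9.52 RPKM) and of all promoter regions (11.9 RPKM). For each of these genes its strongest promoter region was taken, a choice that favours higher values.

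The libraries held 13188833 to 35064429 reads, with 37.2 to 42.4% of reads in the regions for the RelA and WT RelB libraries, 4.62 and 7.41% for the RelBko RelB libraries at 1 h and 0 h, and 3.52% for the input. At a region of median length 1 read was worth 0.0790 to 0.210 RPKM, so values near 1 RPKM rest on few reads. As a check of the cell type, the strongest region of each marker gene was taken, mostly intronic or intergenic, a choice that favours enrichment. RelA in WT cells was enriched at 7 of 7 such regions of dendritic cell markers, 3 of 3 of macrophage, 4 of 4 of neutrophil, 3 of 3 of B cell, 4 of 4 of T and NK cell and 3 of 4 of erythroid and mast cell markers, against 82.0% of all regions, so these counts do not tell the cell types apart. Median RelA signal in WT cells was 64.9 RPKM at the dendritic cell marker regions and 34.0 RPKM at those of macrophages, with 7.90 to 16.3 RPKM at those of the other types. The ranges of the former 2 overlapped, with 55.3 to 119 RPKM for dendritic cell and 30.9 to 76.8 RPKM for macrophage markers, the latter highest at Adgre1. These values do not tell dendritic cells from macrophages either, and the macrophage median rests on 3 genes.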

How the data were processed

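ChIP-seq of RelA and RelB and 1 input library of mouse dendritic cell cultures were analysed as RPKM values, which the authors calculated for 7 libraries over 93611 shared regions, per the file headers. The deposited annotation also gives each region's nearest gene, class and distance to a TSS; a further deposited file repeats the coordinates. Per the submitters' processing notes, the tools were bedtools, HOMER and HISAT2 and the build was mm9. The sources used here give neither their versions and roles nor how the regions were chosen. The treatment text names, beside LPS, a CpG oligonucleotide reagent, and the extraction protocol names a RelA antibody alone; the sample labels were followed.

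RPKM times length gave whole multiples in all values (100% within 0.01 read), so reads were recovered; they may be 1 too high, since no value is under 1 read. Ratios were log2 of RPKM plus 0.5. Enrichment, comparison and call rules (2 RPKM, 2-fold over input, 2-fold) are stated with the results. Intervals are exact (Clopper-Pearson, 95%) and cover counting error only. With 1 library per group there is no test, no SD and no p-value. The scripts were checked on simulated reads with known changes, which says nothing about how libraries of a group differ. Python 3.11.15, numpy 2.4.6, pandas 2.3.3 and scipy 1.17.1 were used.

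The members, pathway and marker lists were chosen with earlier results of these data known. Genes were named if a region was called in the RelA genotype, RelB time or RelA over RelB comparison, if it was among the 3 most extreme regions each way for RelB between genotypes, if its promoter was highest or lowest in its role, if it held 1 of the 5 strongest non-promoter regions, or if interferon-inducible. Promoter windows come from RefSeq (GRCm38.p6) and were matched by symbol. No reference genome of mm9 was used here, so sequences of the ChIP regions are not shown. Alternatives were other pseudocounts, thresholds, scalings, distances and gene sets.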

Additional observations from a re-analysis of the deposited data

Results flagged for a closer look

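At the deposited scale the RelB signal between times had opposite signs in the genotypes. At the 13 proteasome promoters compared in RelBko cells the median log2 ratio of 1 h over 0 h was -1.02, and at the 23 compared in WT cells it was 0.16, a difference of 1.18. Over non-promoter proteasome regions the medians were -0.87 in RelBko and 0.08 in WT, a difference of 0.95. All promoter regions of the table had medians of -1.01 in RelBko and 0.17 in WT. The signs depend on scaling: with the median ratio of all compared regions set to 1, the promoter medians are -0.09 in RelBko and 0.02 in WT, and the medians of the other regions are 0.06 in RelBko and -0.06 in WT. By construction that setting takes out any shift that the compared regions share. The difference between the genotypes was not tested, since each has 1 library per time. The regions compared are not the same in both genotypes, and the RelBko libraries had 4.62% of their reads in the regions at 1 h and 7.41% at 0 h.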

How the results depend on the processing

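No paired analysis was possible because each group is 1 library with no replicate number, so leaving out a replicate could not be done either. Counts below are of all proteasome regions, promoter and other together. The largest dependence was on scaling, where a median ratio of 1 takes out by construction any shift that the compared regions share. With the median ratio of all compared regions set to 1, which moves log2 ratios by 2.47 and 1.85 for RelB in RelBko over WT at 1 h and 0 h and by 0.93 for RelB in RelBko at 1 h over 0 h, calls for RelB in RelBko over WT became 14 higher and 14 lower at 1 h (0 and 107 as reported) and 13 higher and 19 lower at 0 h (1 and 90). Calls for RelB in RelBko at 1 h over 0 h became 4 higher and 0 lower (1 and 16), and for RelA over RelB 7 were lower (11). The promoter medians of RelBko over WT turned to 0.35 at 1 h and 0.58 at 0 h. Among promoters highest or lowest in their role, the 1 h value turned above 0 at Psmd1 (1.18), Psmc3ip (0.53) and Psmc6 (0.27). It also did at Psmb1 (0.35), Psmd9 (0.0332) and Psma1 (1.31). Promoters that were neither highest nor lowest were not followed singly, so this is not a full list. The other-region medians turned to -0.0573 for RelB in WT at 1 h over 0 h and to 0.0609 in RelBko, and those of RelA over RelB to 0.11 (promoters) and 0.0381 (others). With regions of no enrichment at ratio 1, the RelA over RelB promoter median was 0.0483, with promoters taken as regions within 1 kb of a TSS 0.071, and within 10 kb the other-region median was 0.12. At 1.5-fold, calls were 11 higher and 18 lower for RelA in RelBko over WT (3 and 9), 22 and 7 for RelB in WT over time (10 and 2), and 21 and 25 for RelA over RelB (8 and 11). At 4 RPKM and 4-fold over input they were 1 and 2 for RelA in RelBko over WT, 5 and 5 for RelA over RelB, 6 higher for RelB in WT over time, 0 higher and 2 lower in RelBko over time, 0 higher for RelBko over WT at 0 h, and 2 and 0 regions were enriched in the RelBko RelB libraries at 0 h and 1 h (33 and 11). Without the filter on low values, higher calls for RelB in RelBko over WT were 1 at 1 h and 3 at 0 h, and RelBko over time had 3 higher and 26 lower. With a pseudocount of 1 RPKM, lower calls were 4 for RelA in RelBko over WT, 1 for RelB in WT over time, 9 in RelBko over time and 6 for RelA over RelB, higher calls were 0 for RelBko over WT at 0 h and 6 for RelB in WT over time, and 7 regions were enriched for RelB in RelBko at 1 h. Within 10 kb of a TSS, lower calls for RelBko over WT were 58 at 1 h and 45 at 0 h, with 0 higher at 0 h, calls were 1 and 2 for RelA in RelBko over WT, 5 and 1 for RelB in WT over time, 10 lower in RelBko over time and 4 and 3 for RelA over RelB, since fewer regions remain; enriched regions were 57 for RelA in RelBko, 59 for RelA in WT, 60 for RelB in WT at 1 h and 56 at 0 h. Without Psma6, chosen after seeing the data, 4 regions were higher for RelB in WT over time and the other-region median was -0.0002. Except where stated, the cause was not tested. Of the medians, 14 more moved without a change of sign, among them those of RelB in RelBko over WT with regions of no enrichment at ratio 1 (promoters -1.37 at 1 h and -0.74 at 0 h). Among the other results, 132 medians stayed within an interval of the ranked ratios around the reported median. Another 161 counts stayed within 1.5 times the reported count. Some of these could not differ. The 1.5-fold setting cannot change a median. Neither the 10 kb limit nor leaving out Psma8 and Psmb11 can change a promoter median. Taking promoters as regions within 1 kb of a TSS cannot change a count over all proteasome regions. Of the values of single regions, 521 kept their status as called or not, 43 lost a call and 5 gained one. Direction was checked only for regions called as reported. For RelB in RelBko over WT at 1 h, log2 at -46116 from Psmc1 was -0.50 as reported. It was 0.25 with regions of no enrichment at ratio 1 and, with the median ratio at 1, was called at 1.97. The promoter median of RelA in RelBko over WT was above 0 under every alternative run, 0.19 to 0.34, counting those that could not change it. One library per group, weak regions of few reads and the recovered reads limit what can be told apart.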
